A study of Mus musculus with 8 samples.

Results

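The interferon-inducible GTPases are large GTP-binding proteins that cells make after exposure to interferons. This account describes 10 of their genes, Irgm1, Irgm2, Igtp, Iigp1, Ifi47, Gbp2, Gbp3, Gbp7, Mx1 and Mx2, out of 23503 genes with a value in the deposited tables. The members were chosen by symbol: every table entry whose RefSeq identifier maps to one of the 10 symbols was taken, and the FPKM of the entries was summed per symbol. FPKM counts sequenced fragments after division by transcript length and by the number mapped in the library, so it can be compared between genes. RNA-seq was made from cultured mouse bone marrow-derived mesenchymal stem cells, which are adherent stromal cells that can form bone, cartilage and fat. The cFos group carried retroviruses with cFos cDNA, and the Luc group carried retroviruses with luciferase, a reporter enzyme, as the control. All 8 libraries were p53 knockout, were from cells at fewer than 20 passages and were prepared from polyA RNA. Each of the single clones 2, 4, 8 and 12 gave 1 cFos and 1 Luc library (n = 4 per group), so a group holds 4 clones of one cell type and no clone has a repeat library. The comparison asks how the levels of these genes differed when cFos was delivered in place of luciferase. In bulk RNA, fewer cells making a transcript and less of it per cell cannot be told apart.

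The set is made up of IRG, GBP and Mx proteins. The immunity-related GTPases, or IRG proteins, act on membranes: the GKS type has the usual lysine in its GTP-binding loop and gathers on vacuoles that hold pathogens, and the GMS type has methionine there, stays on the cell's own membranes and keeps the GKS proteins inactive. Guanylate-binding proteins, or GBPs, assemble on pathogen vacuoles and on bacteria, and Mx proteins are dynamin-like antiviral proteins that block the multiplication of RNA viruses. Interferon gamma acts on genes through GAS elements, and type I and III interferons act through a complex with STAT2 and IRF9 that binds interferon-stimulated response elements, or ISREs. IRG and GBP genes answer to both routes, and Mx genes answer mainly to type I and III interferons.

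The labels were checked first. Fos, the transduced gene, had 589, 675, 1019 and 505 FPKM in the cFos libraries of clones 2, 4, 8 and 12, against 76.2, 41.1, 302 and 43.5 FPKM in the Luc libraries of the same clones. Every cFos library was above every Luc library, and Luc of clone 8 was the highest control. The difference was 3.06 on the log2(FPKM + 0.5) scale (SE 0.58, limma, Benjamini-Hochberg adjusted p = 0.0184), and the adjusted p was 0.0510 without Luc of clone 2, 0.0580 without cFos of clone 2, 0.0561 without cFos of clone 4 and 0.0539 without cFos of clone 8. Of 17 blood cell markers in the tables, 15 were under 1 FPKM in every library, Ms4a1 and Ncr1 were listed at 0 throughout, and the summed level was 2.07 to 2.64 FPKM in cFos libraries and 2.54 to 3.02 FPKM in Luc libraries. Of 5 endothelial markers, all were under 1 FPKM everywhere, Cdh5 was listed at 0, and the sum was 0.0605 to 0.110 FPKM in cFos libraries and 0.155 to 0.432 FPKM in Luc libraries. The 16 stromal progenitor markers summed to 3686 to 5445 FPKM in cFos libraries and 5000 to 10432 FPKM in Luc libraries. A single marker reached 7270 FPKM, so the most abundant markers weigh most in these sums. Of the 13 stromal markers tested, Cxcl12 fell, by 3.07 on the log2 scale (limma adjusted p = 0.0154, 0.0558 without cFos of clone 2), Pdgfrb rose by 0.75 (adjusted p = 0.0442, with 6 of the leave-one-out values above the threshold, up to 0.129), and 11 did not pass. The median difference of the 13 was 0.28 on the log2 scale. A limma fit with the clone as a block, which compares libraries within each clone, called 2 of them higher and 2 lower. The part of these stromal differences in the results below was not tested.

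Promoter sequences are shown for the member genes that carry the same short motif near the start site, 6 of the 7 that were matched to a RefSeq window (GRCm38.p6). Iigp1, Mx1 and Mx2 were not matched to a window. The motif searched was the ISRE core, a pair of GAAA repeats with any 2 bases between them, on both strands of windows from 250 bases before to 50 bases after each start. Each line gives the 120 bases before the start, 5′ to 3′ on the strand of the gene, with capitals marking matches to the motif on either strand. The windows are, in order, chr11:48871421-48871540 on the minus strand, and on the plus strand chr11:58214857-58214976, chr11:58199436-58199555, chr3:142620543-142620662, chr3:142559924-142560043 and chr3:142530216-142530335.
Irgm1: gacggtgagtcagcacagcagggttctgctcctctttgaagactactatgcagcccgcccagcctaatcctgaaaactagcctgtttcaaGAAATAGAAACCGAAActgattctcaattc
Irgm2: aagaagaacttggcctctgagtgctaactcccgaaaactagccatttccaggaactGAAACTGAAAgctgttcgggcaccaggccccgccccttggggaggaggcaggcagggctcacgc
Igtp: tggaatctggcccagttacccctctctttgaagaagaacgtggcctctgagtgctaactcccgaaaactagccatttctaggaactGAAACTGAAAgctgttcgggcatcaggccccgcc
Gbp2: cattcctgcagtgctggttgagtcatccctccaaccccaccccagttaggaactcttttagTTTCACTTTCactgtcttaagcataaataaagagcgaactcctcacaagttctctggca
Gbp3: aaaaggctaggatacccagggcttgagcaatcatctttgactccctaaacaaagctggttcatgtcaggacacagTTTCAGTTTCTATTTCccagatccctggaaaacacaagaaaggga
Gbp7: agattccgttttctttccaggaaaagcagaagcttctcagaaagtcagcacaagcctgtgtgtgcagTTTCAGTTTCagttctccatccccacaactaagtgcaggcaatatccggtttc

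In Irgm1 and Gbp3 a pair of overlapping matches forms a run of 3 GAAA repeats. The matches begin 30 and 24 bases before the start in Irgm1, 64 in Irgm2, 34 in Igtp, 59 in Gbp2, 45 and 39 in Gbp3 and 53 in Gbp7, on the gene's own strand in the IRG genes and on the opposite strand in the GBP genes. Of 32851 windows of the same length in the table, 3.44% held the motif. The search found no match in the Ifi47 window, nor in a window at a second listed start of Gbp3. The Ifi47 window stands at the gene's first start, while the entry with 55.9% to 99.99% of the Ifi47 level in cFos libraries and 88.8% to 99.99% in Luc libraries begins 10430 bases further on, where no window was searched. Irgm2 and Igtp share 68 of 70 bases around the motif, at an offset of 30 bases between the windows. The GAS letters TTCNNNGAA were in the windows of Irgm2, Igtp and Gbp7, against 8.30% of all windows, and in Irgm2 and Igtp they stood just upstream of the ISRE core without overlapping it. The letters TGANTCA, which AP-1, the dimer that cFos forms with Jun proteins, is known to bind, were in those of Irgm1, 115 bases before the start, and Gbp2, 102 bases before it, against 7.81% of all windows. Matches of letters are a description of sequence and no measurement of binding.

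The interferon-inducible GTPases were lower in cFos cells than in Luc cells across the set. The 10 genes summed to 27.1, 33.6, 17.5 and 41.2 FPKM in the cFos libraries of clones 2, 4, 8 and 12, against 488, 232, 98.8 and 148 FPKM in the Luc libraries. The Luc sum was 18.0, 6.89, 5.65 and 3.60 times the cFos sum in those clones. Of the 10 members, 9 had enough signal to be tested, at least 1 FPKM in at least 4 libraries, and 8 of these fell, none rose, and 1, Irgm1, did not pass at an adjusted p of 0.05 in limma. Among all 11162 genes tested, 2.62% were called lower and 2.92% higher. With the clone as a block, which compares the libraries of each clone with each other, all 9 tested members were called lower, where 4.28% of all genes were. All 4 cFos libraries lay below all 4 Luc libraries in 9 of the 10 members, Irgm1 being the exception, and in 7.8% of all tested genes. Iigp1 and Mx2 reached 1 FPKM in Luc libraries only. Passing the filter in this way fixes that cFos is the lower group and that the groups do not overlap. The median difference of the 9 tested members was −2.74 on the log2 scale, and that of all tested genes was −0.060.

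**Figure D1:**
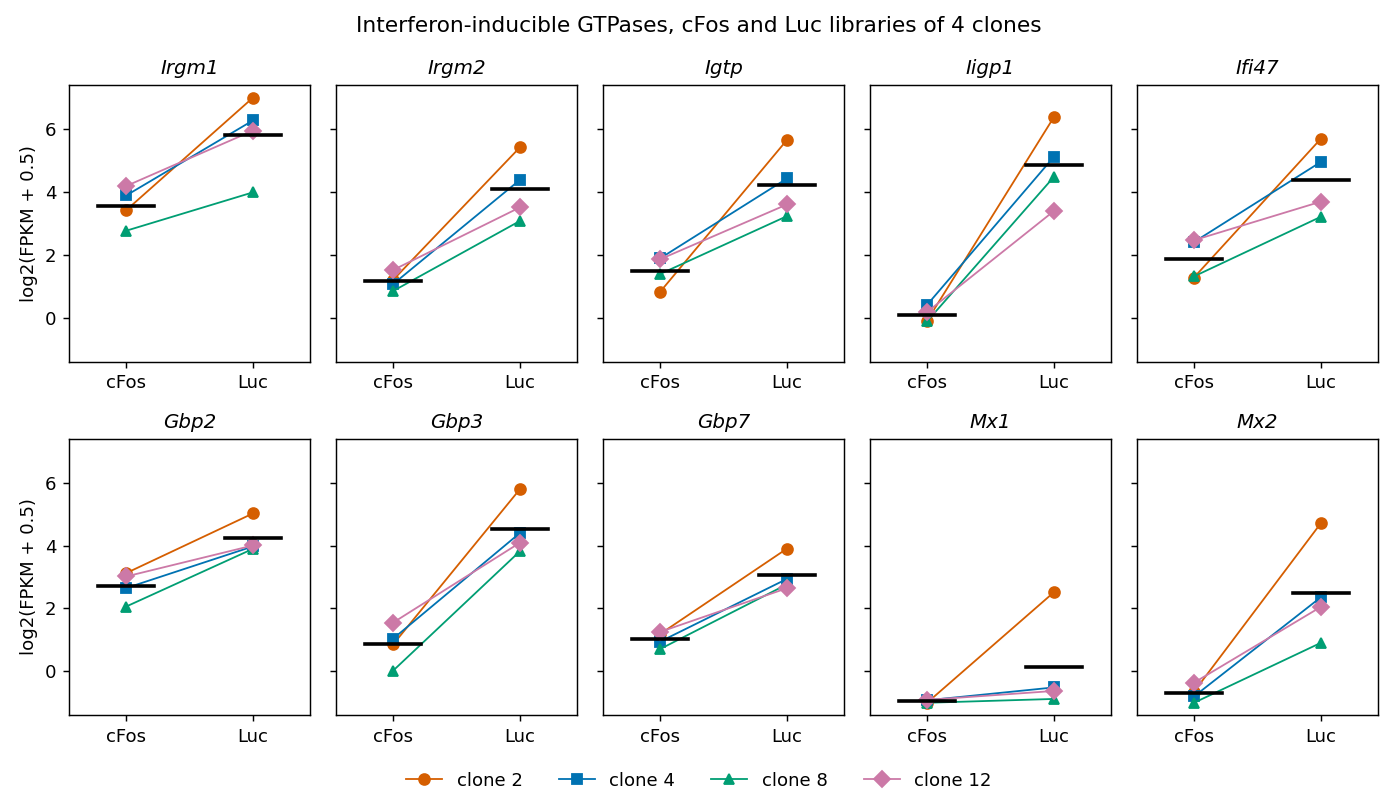
Levels of the 10 GTPase genes as log2(FPKM + 0.5) (vertical axis) in the cFos (left) and Luc (right) library of each clone, joined by a line, with black bars at the group means (n = 4 each). Every line slopes up towards Luc, clone 2 is the highest Luc library in all 10 panels, and only in Irgm1 does a cFos library, 17.8 FPKM in clone 12, exceed a Luc library, 15.4 FPKM in clone 8.

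Among the GMS-type regulators, 2 of 3 fell and the third, Irgm1, did not pass. Irgm1 (chr11:48678751-48684848, mm9), known in mice for resistance to mycobacteria and for a part in autophagy, had 10.2, 14.3, 6.31 and 17.8 FPKM in the cFos libraries of clones 2, 4, 8 and 12, against 128, 77.2, 15.4 and 61.5 FPKM in the Luc libraries. The groups overlapped, since cFos of clone 12 was above Luc of clone 8, yet within each clone the cFos library was the lower one. The log2 difference was −2.24 (SE 0.59, limma adjusted p = 0.0634). It passed without Luc of clone 8 (adjusted p = 0.00606) and in the fit with clone blocks (adjusted p = 0.0164). Irgm1 was the most abundant member in both groups, at 12.2 ± 4.97 FPKM in cFos cells and 70.6 ± 46.5 FPKM in Luc cells (SD, n = 4 each).

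Irgm2 and Igtp lie 7.385 kb apart, and both fell. Irgm2 (chr11:58028479-58036285), which resides mainly on the Golgi apparatus, had 1.81, 1.60, 1.30 and 2.37 FPKM in the cFos libraries of clones 2, 4, 8 and 12, against 42.5, 20.5, 7.96 and 10.9 FPKM in the Luc libraries. The groups did not overlap, and the cFos libraries spanned a narrower range than the Luc libraries. On the log2 scale the difference was −2.94 (SE 0.45, limma adjusted p = 0.00757), and it passed with any 1 library left out. Igtp (chr11:58013058-58021094), also named Irgm3 and found on the endoplasmic reticulum, had 1.27, 3.20, 2.12 and 3.13 FPKM in the cFos libraries, against 50.01, 21.1, 8.90 and 11.7 FPKM in the Luc libraries. The groups were again separate, with clone 2 at once the lowest cFos and the highest Luc library. It differed by −2.74 on the log2 scale (SE 0.49, limma adjusted p = 0.0155, 0.0569 without cFos of clone 2).

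Both GKS-type effectors fell, and Iigp1 had the largest difference of the members. Iigp1 (chr18:60535683-60552283), also called Irga6, is an effector that coats the vacuole of Toxoplasma gondii in mouse cells. It had 0.436, 0.826, 0.422 and 0.634 FPKM in the cFos libraries of clones 2, 4, 8 and 12, against 83.1, 34.3, 21.9 and 10.03 FPKM in the Luc libraries. Luc was 191, 41.5, 51.8 and 15.8 times cFos in those clones, every cFos library was under 1 FPKM, and the order of the clones in the Luc group was not that of the cFos group. The log2 difference was −4.75 (SE 0.53, limma adjusted p = 0.00222, at most 0.0123 with any 1 library left out), and 0.0448% of tested genes had a lower difference. Iigp1 had 2 transcript entries, and the share of the longer one ran from 18.0% to 99.9% of the gene's FPKM in cFos libraries and from 22.9% to 50.7% in Luc libraries.

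Ifi47 (chr11:48890089-48910489), also called Irgd or IRG-47, had 1.93, 4.81, 1.99 and 5.02 FPKM in the cFos libraries of clones 2, 4, 8 and 12, against 51.4, 30.6, 8.77 and 12.4 FPKM in the Luc libraries. The groups did not overlap, and the nearest pair was cFos of clone 12 with Luc of clone 8. In log2 the difference was −2.52 (SE 0.55, limma adjusted p = 0.0313). The adjusted p was 0.0600 without Luc of clone 2, 0.101 without cFos of clone 2, 0.0764 without Luc of clone 4, 0.0608 without cFos of clone 4 and 0.0859 without cFos of clone 8. An entry of the olfactory receptor gene Olfr56 spans the whole Ifi47 interval, at 0.0381, 0.0817, 0.131 and 0.0511 FPKM in the cFos libraries, against 3.56, 1.04, 0.163 and 0.406 FPKM in the Luc libraries. How reads were divided between these overlapping entries was not tested.

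All 3 guanylate-binding proteins fell. Their genes stand in a row on chromosome 3 that spans 107.7 kb, in the order Gbp7, Gbp3, Gbp2. Gbp2 (chr3:142283627-142300972), which in mice helps to control Toxoplasma gondii, had 8.23, 5.78, 3.68 and 7.61 FPKM in the cFos libraries of clones 2, 4, 8 and 12, against 32.1, 15.2, 14.4 and 15.6 FPKM in the Luc libraries. The 3 Luc libraries of clones 4, 8 and 12 were close together, with clone 2 far above, and the groups did not overlap. The log2 difference was −1.51 (SE 0.31, limma adjusted p = 0.0250), the smallest of the tested members. The adjusted p was 0.0511 without cFos of clone 2, 0.0742 without cFos of clone 4 and 0.0558 without cFos of clone 8.

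Gbp3 (chr3:142223016-142236176) had 1.31, 1.55, 0.516 and 2.43 FPKM in the cFos libraries of clones 2, 4, 8 and 12, against 55.3, 20.7, 13.7 and 16.6 FPKM in the Luc libraries. The groups were far apart. Gbp3 differed by −3.66 on the log2 scale (SE 0.45, limma adjusted p = 0.00329, at most 0.0151 with any 1 library left out). At the pseudocount of 0.5 it was second to Iigp1 among the tested members. With a pseudocount of 0.1 Mx2 was at −4.68 and Gbp3 at −4.04, so this rank depends on the pseudocount. Gbp7 (chr3:142193302-142213047), which takes part in oxidant production against bacteria in mouse macrophages, had 1.78, 1.43, 1.13 and 1.88 FPKM in the cFos libraries, against 14.5, 7.18, 6.31 and 5.76 FPKM in the Luc libraries. It did not overlap between the groups, and its cFos libraries had the narrowest relative spread of the tested members, with a mean of 1.56 ± 0.342 FPKM (SD, n = 4). For Gbp7 the log2 difference was −2.04 (SE 0.28, limma adjusted p = 0.00470, at most 0.0201 with any 1 library left out).

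The Mx genes were near 0 in cFos libraries. Mx2 (chr16:97757688-97782508), whose intact protein blocks vesicular stomatitis virus in the cytoplasm, had 0.138, 0.0744, 0 and 0.278 FPKM in the cFos libraries of clones 2, 4, 8 and 12, against 25.7, 4.63, 1.38 and 3.64 FPKM in the Luc libraries. The groups did not overlap, which the filter fixed for a gene that reached 1 FPKM in Luc libraries only. Luc of clone 2 stood far above the other Luc libraries. The log2 difference was −3.21 (SE 0.68, limma adjusted p = 0.0282), a value that understates the change because the cFos levels are below the pseudocount of 0.5. The adjusted p was 0.0861 without cFos of clone 2, 0.0609 without Luc of clone 4, 0.0785 without cFos of clone 4, 0.0763 without cFos of clone 8 and 0.0530 without cFos of clone 12.

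Mx1 (chr16:97668642-97684513), whose intact protein blocks influenza viruses in the nucleus, had 5.79e-07, 0.0283, 0 and 0.0327 FPKM in the cFos libraries of clones 2, 4, 8 and 12, against 5.23, 0.201, 0.0441 and 0.149 FPKM in the Luc libraries. Luc of clone 2 alone was above 1 FPKM, so the gene was left out of the test over all genes. Mx1 differed by −1.08 on the log2 scale (exact two-sided permutation test over the 8 libraries, p = 0.0286, the smallest it can give; within clones, p = 0.125, also the smallest). Without Luc of clone 2 the difference was −0.29, and with a pseudocount of 0.1 it was −2.10. Leaving out any 1 cFos library gave an exact permutation p of 0.286, and leaving out any 1 Luc library gave 0.0286. Another entry with no symbol in the tables used here, NM_010846, lies inside the Mx1 interval, at 0.0253, 6.91e-05, 0 and 0.0272 FPKM in the cFos libraries, against 9.06, 0.265, 0.0758 and 0.287 FPKM in the Luc libraries. With it added, a choice made after seeing the data, the difference was −1.68 (exact permutation p = 0.0286). The RefSeq table lists both Mx genes as transcribed pseudogenes in the reference strain, and Mx1 and Mx2 transcripts are 94.8% identical over 920 aligned bases, so their levels are uncertain where reads were shared between them.

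The clones differed in how far apart their libraries were. All 10 members were lower in the cFos library than in the Luc library of every clone, which held for 20.9% of all tested genes. For Iigp1 and Mx2 the filter fixed this, since only their Luc libraries reached 1 FPKM. The median member difference was −4.32, −2.55, −1.90 and −1.75 on the log2 scale in clones 2, 4, 8 and 12, where the median of all tested genes was −0.063, −0.087, −0.021 and −0.017. On that scale clone 2 had the largest difference in all 10 members, and the smallest was in clone 12 in 7 members and in clone 8 in 3. Mx1 and Mx2 are among these 3. Both were at 0 in cFos of clone 8, so their low Luc levels, 0.0441 and 1.38 FPKM, and the pseudocount bound the difference. The Luc library of clone 2 was the highest Luc library in 10 of 10 members and that of clone 8 the lowest in 8, while in the cFos group clone 12 was highest in 7 and clone 8 lowest in 8. How many of all tested genes had the same orders was not counted, so these counts describe the members only. The members had like profiles and are not 10 separate observations. The authors deposited an interval of FPKM for each entry, which covers counting and assignment within a library only. Its limits were summed per symbol, so the intervals of the 4 members with several entries are sums of limits. The cFos and Luc intervals were apart in 38 of 40 pairs of member and clone. The exceptions were Mx1 in clones 8 and 12. For Mx2 in clone 8 the cFos limits were both 0. Over all tested genes the cFos interval lay below the Luc interval in 40.2%, 34.3%, 34.6% and 31.5% of genes in clones 2, 4, 8 and 12.

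**Figure D2:**
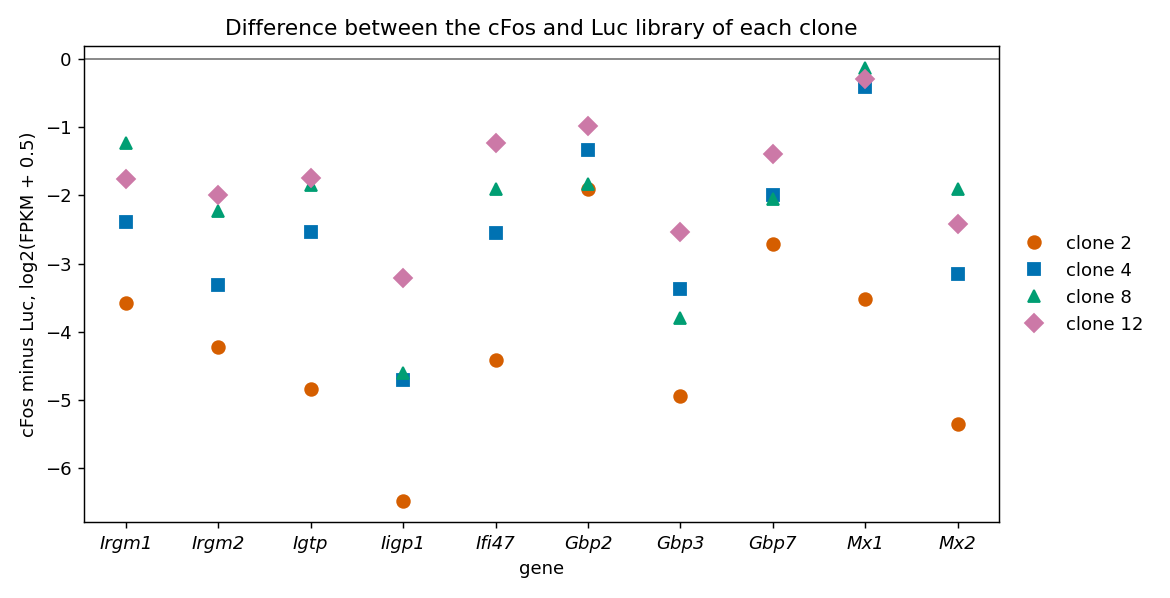
Difference between the cFos and Luc library of the same clone (vertical axis, cFos minus Luc, log2(FPKM + 0.5)) for each of the 10 genes, 1 point per clone. All points are below 0, and clone 2 gives the lowest point for every gene, at −6.48 for Iigp1 and −1.90 for Gbp2.

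Differences among clones, tested over both viruses together, called none of the 9 tested members (limma F test, adjusted p between 0.240 and 0.746), where 54 of 11162 genes, 0.484%, were called. At an unadjusted p under 0.05 there were 2 members and 1839 of all tested genes. With 1 library per clone and virus, a test of whether the response itself differed between clones has no repeat to rest on and was not made.

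Other genes of the IRG and GBP families were also called lower in part. Of 21 listed in the tables, 5 had enough signal to be tested, and 3 of these fell while Tgtp2 and Irgq did not pass. Gm4951, a close sequence relative of Iigp1, had 0.0892, 0.116, 0.504 and 0.0939 FPKM in the cFos libraries of clones 2, 4, 8 and 12, against 27.4, 9.93, 14.1 and 3.15 FPKM in the Luc libraries. The log2 difference was −4.03 (SE 0.54, limma adjusted p = 0.00435). Gm4951 reached 1 FPKM in Luc libraries only, so the filter fixed that its groups do not overlap. Its transcript matches that of Iigp1 at 86.3% of 1280 aligned bases, so reads of this pair could have been exchanged in part. Iigp1 also matches Gm5970 at 88.1% of 1223 aligned bases. Similar limits hold for Irgm2 with Igtp (84.0% of 682), Gbp3 with Gbp7 (80.5% of 1695) and Gbp2 with Gbp2b (83.4% of 1730). How reads were divided within these pairs was not tested. F830016B08Rik, which also reached 1 FPKM in Luc libraries only, fell by 2.86 on the log2 scale (limma adjusted p = 0.00858). Gbp6 fell by 2.32 (limma adjusted p = 0.0438), but without any 1 of the libraries other than Luc of clone 12 it did not pass (adjusted p 0.0769 to 0.105). It passed without Luc of clone 12 (0.00680) and with the clone as a block (0.00559). Tgtp2, a GKS-type effector, averaged 2.90 ± 2.13 FPKM in cFos cells and 29.7 ± 21.2 FPKM in Luc cells (SD, n = 4 each), with a limma adjusted p of 0.0787. It passed without Luc of clone 8 (adjusted p = 0.00966) and in the fit with clone blocks (0.0122). Tgtp2 sums 2 entries, and its interval begins at the same base as that of Tgtp1. Tgtp1 had 0.000533, 0.841, 9.49e-05 and 0.00246 FPKM in the cFos libraries of clones 2, 4, 8 and 12. Its Luc libraries had 0.0102, 0.492, 1.27 and 0.986 FPKM. How reads were divided between Tgtp1 and Tgtp2 was not tested. Irgq, a divergent family member, averaged 5.29 ± 0.857 FPKM in cFos cells and 4.77 ± 0.242 FPKM in Luc cells (limma adjusted p = 0.677).

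The other dynamin superfamily GTPases, which shape membranes and do not belong to the interferon-induced families, had no gene called lower. Of 13 tested, 1 rose and 12 did not pass in limma, while 4 of 13 had an unadjusted p under 0.05. Their median difference was 0.16 on the log2 scale. Among all tested genes 2.62% were called lower and 2.92% higher, so a list of this size with none called lower is near that share. Dnm1, the dynamin of synaptic vesicle endocytosis, had 27.1, 15.2, 15.2 and 17.8 FPKM in the cFos libraries of clones 2, 4, 8 and 12, against 5.13, 4.33, 8.17 and 10.2 FPKM in the Luc libraries. It was higher in cFos in each clone, with no overlap (log2 difference 1.41, SE 0.29, limma adjusted p = 0.0243), and its adjusted p lay between 0.0530 and 0.0734 without Luc of clone 2, Luc of clone 4, or cFos of clone 2, 4 or 12. The values that did not pass included those of Ehd2, with an adjusted p of 0.140, and of Dnm1l, the dynamin of mitochondrial fission, with 0.967. Without Luc of clone 8, Ehd4, named after its values were seen, was called lower (limma adjusted p = 0.0375).

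The tested genes next to the members on their chromosomes, the listed IRG and GBP genes aside, were not called. The members and the other listed IRG and GBP genes were left out of this search. Of those left out, Gm4951 and F830016B08Rik, both called lower, lie within 250 kb of Iigp1. Irgm2 and Igtp, and likewise the GBP members, lie near one another and fell. Within 250 kb of a member, a distance chosen after seeing the data, the tables list 45 further entries, of which 20 were tested. Among those not tested are NM_010846 inside the Mx1 interval and Gm4841, whose transcript matches that of Iigp1 at 70.6% of 871 aligned bases. None of the 20 was called in limma in either direction, 2 had an unadjusted p under 0.05, and their median difference was 0.02 on the log2 scale. With 2.62% of all tested genes called lower and 2.92% higher, no call among 20 is near the share of all genes. Pdlim5, named after its values were seen as the neighbour with the largest difference, averaged 25.9 ± 14.5 FPKM in cFos cells and 49.0 ± 11.5 FPKM in Luc cells (SD, n = 4 each; log2 difference −1.03, limma adjusted p = 0.130).

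**Figure D3:**
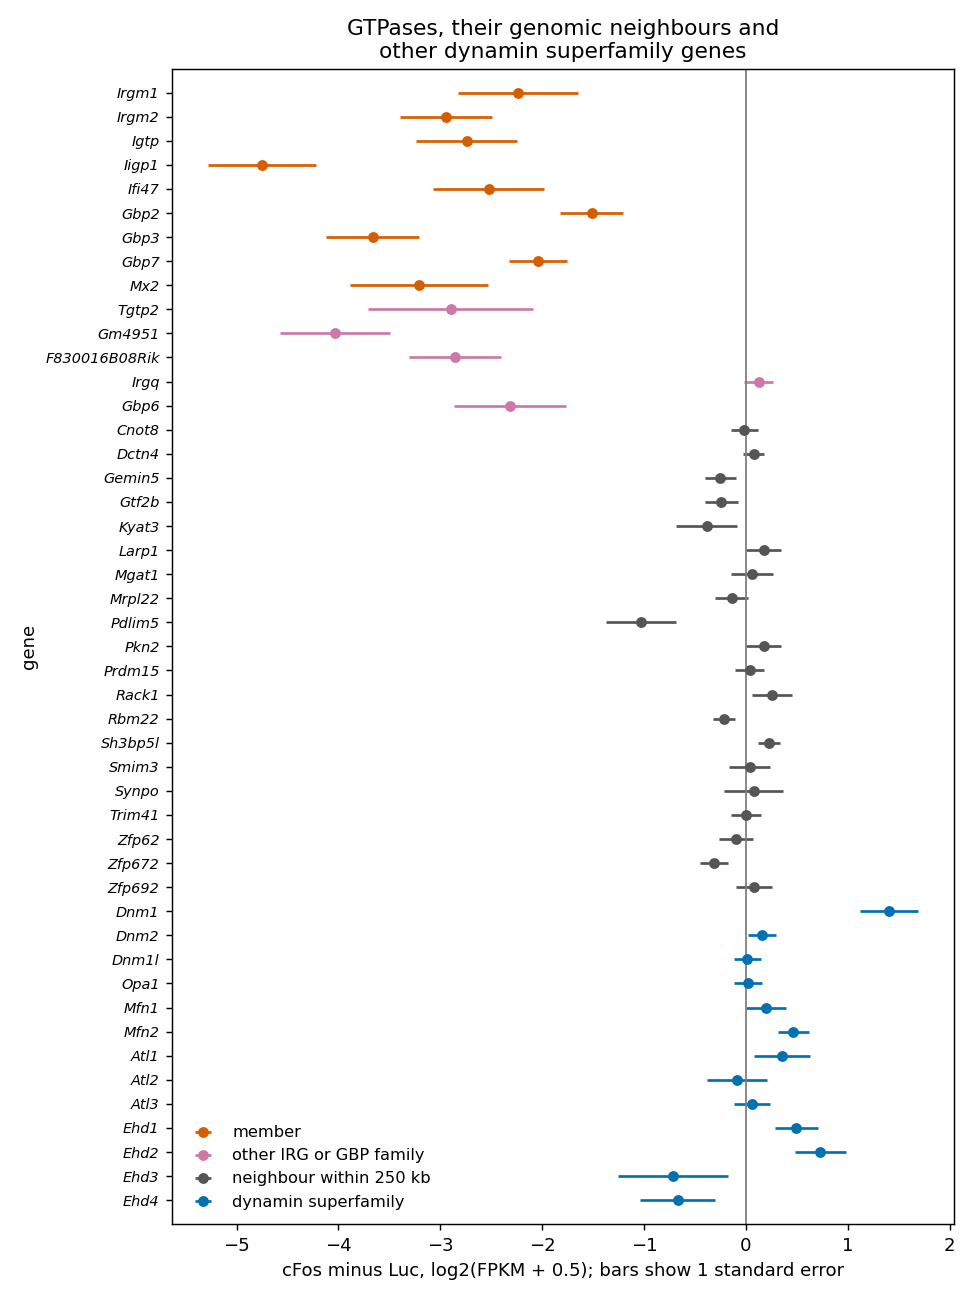
Log2 difference, cFos minus Luc, with bars of 1 standard error (horizontal axis, limma, 4 libraries each) for the 9 tested members, 5 other IRG or GBP genes, 20 neighbours within 250 kb and 13 dynamin superfamily genes (rows). Members lie between −4.75 and −1.51, while the neighbours, which exclude the listed IRG and GBP genes, lie around 0 and reach −1.03 for Pdlim5.

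Interferon transcripts themselves were at or near 0. Of 20 interferon ligand genes in the tables none reached 1 FPKM in any library, and 12 were listed at 0 in all 8. Ifnb1, the gene of interferon beta, was listed at 0 in all 4 cFos libraries, against 0.644, 0, 0 and 0.0436 FPKM in the Luc libraries of clones 2, 4, 8 and 12. Ifna4 was listed at 0 in all 4 cFos libraries, against 0.960 FPKM in Luc of clone 2 and 0 in the other Luc libraries. These levels were too low to be tested.

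Among interferon receptors and signal transducers, 15 of 18 listed here were tested, and 4 fell, none rose and 11 did not pass. Stat2, a transcription factor of the type I and III interferon routes, had 3.55, 4.65, 4.33 and 5.73 FPKM in the cFos libraries of clones 2, 4, 8 and 12, against 67.9, 32.0, 11.5 and 21.1 FPKM in the Luc libraries. The groups did not overlap, and Luc of clone 2 was the highest library, as it was for the GTPases (log2 difference −2.46, SE 0.45, limma adjusted p = 0.0167, 0.0629 without cFos of clone 2 and 0.0507 without cFos of clone 4). Irf9, the DNA-binding partner of STAT2, averaged 7.24 ± 0.784 FPKM in cFos cells and 31.6 ± 11.3 FPKM in Luc cells (SD, n = 4 each; log2 difference −1.99, limma adjusted p = 0.00284). Nlrc5, a transactivator of MHC class I genes, fell by 2.54 on the log2 scale (limma adjusted p = 0.0324), and its adjusted p was 0.0691 to 0.101 without Luc of clone 4 or without any 1 of the cFos libraries.

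Of the receptor genes, 1 fell. Ifngr1, the ligand-binding chain of the interferon gamma receptor, had 30.03, 26.9, 37.6 and 28.4 FPKM in the cFos libraries of clones 2, 4, 8 and 12, against 123, 60.4, 87.0 and 48.3 FPKM in the Luc libraries. The groups did not overlap (log2 difference −1.28, SE 0.27, limma adjusted p = 0.0282), and the adjusted p was 0.0584 without Luc of clone 8, 0.0656 without cFos of clone 12, 0.0888 without cFos of clone 2 and 0.0854 without cFos of clone 4. Its partner chain Ifngr2 averaged 20.3 ± 3.69 FPKM in cFos cells and 34.8 ± 13.4 FPKM in Luc cells (limma adjusted p = 0.204). Ifnar2, a chain of the type I receptor, averaged 30.8 ± 3.84 FPKM in cFos cells and 33.2 ± 4.19 FPKM in Luc cells (limma adjusted p = 0.727), and the kinase Jak1 averaged 70.4 ± 32.4 FPKM in cFos cells and 75.7 ± 22.7 FPKM in Luc cells (adjusted p = 0.860). Irf1, the factor through which interferon gamma raises many GBP genes, averaged 13.4 ± 2.41 FPKM in cFos cells and 22.8 ± 7.07 FPKM in Luc cells (limma adjusted p = 0.129, 0.0489 without Luc of clone 8 and 0.0228 in the fit with clone blocks). With 1 library left out, between 1 and 5 of the 15 were called lower, 1 without cFos of clone 2 or of clone 4, and 2 without cFos of clone 12.

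**Figure D4:**
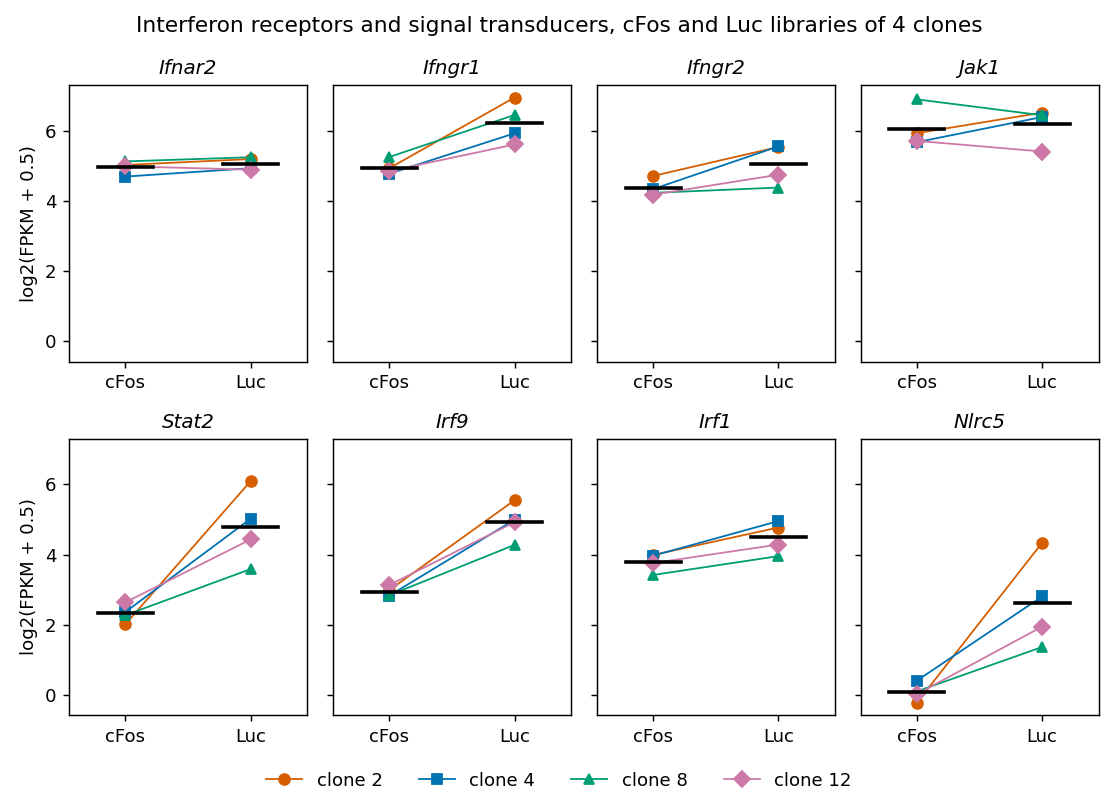
Levels of the 4 interferon signalling genes that fell and of the 4 most abundant that did not pass, as log2(FPKM + 0.5) (vertical axis) in the cFos (left) and Luc (right) library of each clone, with black bars at the group means (n = 4 each). Stat2, Irf9 and Nlrc5 separate by group, with Luc of clone 2 highest, while Ifnar2 and Jak1 overlap between groups.

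The autophagy partners of these GTPases, the ATG8 proteins and the machinery that attaches them to membranes, had 18 genes tested and none called in limma in either direction, while 3 had an unadjusted p under 0.05. Over all tested genes 2.62% were called lower and 2.92% higher, and no call among 18 is near that share. Gabarap averaged 365 ± 74.5 FPKM in cFos cells and 305 ± 49.9 FPKM in Luc cells (SD, n = 4 each; adjusted p = 0.483), and Map1lc3b averaged 112 ± 17.8 FPKM in cFos cells and 117 ± 28.9 FPKM in Luc cells (adjusted p = 0.926). The autophagy receptor gene Sqstm1 averaged 256 ± 70.8 FPKM in cFos cells and 187 ± 57.3 FPKM in Luc cells (adjusted p = 0.382).

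The profile of the 9 tested members across the 8 libraries, taken as their mean standardized log2 level, was set against the 11153 other tested genes, and the 8 with the highest likeness are given. Pearson's r was 0.996 for Rtp4, 0.994 for Xaf1, 0.994 for an entry without a symbol, NM_001081215, 0.994 for Slfn8, 0.993 for Ddx58, 0.992 for Helz2, 0.990 for Oas1b and 0.989 for Ifit1. The single members had r between 0.943 for Irgm1 and 0.996 for Irgm2 with the profile they form. These values are over 8 libraries in separate cFos and Luc groups of the same 4 clones, so they describe a likeness of order and carry no test. Rtp4, the most alike, had 1.73, 2.05, 1.10 and 3.17 FPKM in the cFos libraries of clones 2, 4, 8 and 12, against 98.8, 43.1, 15.6 and 26.9 FPKM in the Luc libraries. Ddx58, which encodes the RNA sensor RIG-I, had 6.95, 5.77, 5.58 and 8.14 FPKM in the cFos libraries, against 74.9, 36.8, 22.1 and 29.6 FPKM in the Luc libraries. In both genes, as in 8 of the 10 members, clone 2 gave the highest Luc library and clone 8 the lowest.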

How the data were processed

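The authors deposited 1 table of FPKM per library, with coverage (a signal of read depth per entry) and interval limits, per the file headers. The submitters' processing notes name build mm9 and, as tools, TopHat, Cufflinks and CASAVA 1.8.2; options and annotation release were not stated in these sources. FPKM is not a count, so no count test was run. From summed length times deposited coverage, libraries held 6.93 to 9.14 gigabases. Of 30769 entries, 30227 were named by RefSeq identifier and 180 by GENCODE, and 362 had no symbol. FPKM was summed per symbol, and 3 genes with a failed estimate were dropped.

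The 11162 genes that reached 1 FPKM in 4 or more libraries were tested on log2(FPKM + 0.5) with limma 3.58.1 in R 4.3.3 (all 8 libraries, moderated test with mean-variance trend, Benjamini-Hochberg adjustment over all tested genes, threshold 0.05), after a check on simulated data. Every log2 difference is cFos minus Luc. The fit has no term for the clone. The clone block is given where it changes the call of a member or the number called in a list. The clone numbers pair the libraries, since each pair is 1 line: the deviations of a clone's cFos and Luc libraries from their group means correlated at 0.174, 0.593, 0.349 and 0.437 in clones 2, 4, 8 and 12. A single value used an exact permutation test. Clones are the replicates, so p-values measure the spread between clones.

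The members and lists were chosen with earlier results of these data known. Named were the 10 members, the called genes of each list with up to 4 of its most abundant genes that were not called, the 8 genes most like the members' profile, and Fos. Alternatives covered pseudocount, filter, scaling, trend, transcript choice, clone block and each library left out. The combination of no filter with the block, the added Mx1 entry and the 250 kb window were chosen after seeing the data. Transcripts were compared with blastn 2.17.0 on GENCODE M21. Protein sequences were not used here. 1 item of the signalling list is not reported here and is not in its counts.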

Additional observations from a re-analysis of the deposited data

Results flagged for a closer look

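Of 80 groups of 4 libraries examined, 10 had a library set apart from the other 3. For independent, normally distributed values chance flags about 1 group in 20. The rule was used on FPKM without a log scale, and the members had like profiles, so that rate may not hold here. Among the Luc libraries, clone 2 stood above the others for Gbp2 (32.1 FPKM), Gbp3 (55.3 FPKM), Gbp7 (14.5 FPKM), Mx1 (5.23 FPKM) and Mx2 (25.7 FPKM). Without that library Gbp2, Gbp3, Gbp7 and Mx2 remained called lower. The log2 difference of Mx1, which was not in the test over all genes, was −1.08 with that library and −0.29 without it. Luc of clone 8 stood above the others for Fos (302 FPKM), and Luc of clone 12 stood above for Col1a2 (2623 FPKM) and below for Jak1 (42.0 FPKM). Among the cFos libraries, clone 8 stood above the others for Gm4951 (0.504 FPKM) and Jak1 (118.5 FPKM).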

How the results depend on the processing

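The differences of the 10 members kept their sign in all 176 alternatives run on them, with 142 on the same side of the threshold, 32 no longer past it and 2 newly past it. For Mx1 this used the unadjusted permutation p, or the limma adjusted p where no filter was applied. Within clones its permutation p cannot fall below 0.125, so Mx1 could not pass with the replicate block. Under changed pseudocounts, scalings, trend or transcript choice 8 members were called. With no filter on low values 5 members were called, 175 genes were lower over all genes, 0 genes differed among clones (limma; 2591 at an unadjusted p under 0.05), and Fos, at 3.06, had an adjusted p of 0.0540. With the clones as a replicate block 503 genes were higher, 478 lower and 9 members called. With no filter and the replicate block together, 88 genes were higher, 25 lower and 0 members called (limma adjusted p 0.0509 to 0.418, 9 members at an unadjusted p under 0.05), and Fos, at 3.06, had an adjusted p of 0.0583. Without the filter 18753 genes were tested in place of 11162, and how far this sets the lower counts was not tested. Leaving out each library in turn gave 4 to 9 members called, 150 to 319 genes higher, 85 to 295 lower, Fos differences of 2.74 to 3.70 and 0 to 115 genes differing among clones. There were 4 members called without cFos of clone 2, 5 without cFos of clone 4 or cFos of clone 8, and 9 without Luc of clone 8; Iigp1, Irgm2, Gbp3 and Gbp7 passed each time. Genes lower numbered 147 without Luc of clone 2, 85 without cFos of clone 2, 172 without Luc of clone 4, 101 without cFos of clone 4 and 138 without cFos of clone 8. The interferon ligands, and Mx1 apart from Luc of clone 2 at 5.23 FPKM, lie near 0 FPKM. How far sequencing depth limits them was not tested.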
